A study of Homo sapiens with 4 samples.

Results

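BIRC5, the gene of survivin, was examined together with AURKB, INCENP and CDCA8, which encode the proteins survivin works with in mitosis, and with AURKA, TPX2 and BORA, the genes of Aurora A and its activators. These 7 genes were chosen by name, with earlier results of these data known. All 13 probe sets that the platform annotation assigns to exactly 1 of their symbols were taken. They came out of 54613 probe sets naming 19775 genes in all. BIRC5 had 4 probe sets, AURKA 3, AURKB 2 and each other gene 1. The samples were total RNA of KYSE410, a human esophageal squamous cell carcinoma line, on Affymetrix 3' expression arrays. The untreated group had 2 arrays, and the group given 20 nM YM155 for 6 h had 2 arrays. YM155 is a small molecule that was first described as a suppressor of survivin expression, and the comparison asked which transcripts differed after it. Both groups share the line and its serum-containing RPMI medium. A treatment protocol among the labels speaks of cisplatin, but each sample's own treatment label gives YM155 or untreated, and these were followed.

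Survivin, Aurora B, INCENP and borealin (the product of CDCA8) form the chromosomal passenger complex. INCENP is its scaffold and activates the kinase Aurora B, while survivin and borealin place the complex at centromeres, where it corrects faulty attachments of chromosomes to the spindle, and later at the central spindle. Aurora A is the related kinase of centrosomes and spindle poles: TPX2 activates it on spindle microtubules, and BORA binds it and promotes its phosphorylation of the kinase PLK1 before mitosis. Transcripts of most of these genes peak in G2 and M phase. The cell cycle genes homology region (CHR), a promoter element bound by the DREAM and MuvB complexes, often lies near a CCAAT box, which NF-Y binds, in such genes. SP1 binds GC boxes.

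The RefSeq promoter table (GRCh38.p14) held 4 of the 7 genes, CDCA8, BORA, INCENP and AURKB, and BIRC5, AURKA and TPX2 were not matched. The 250 bases before the start site are shown for CDCA8 and BORA, a passenger gene and an Aurora A activator gene with negative differences after YM155, and for INCENP, the member gene with a positive one; none of these differences passed the test. Capitals mark the motifs: TTTGAA or TTCAAA or TTCGAA for a CHR, CCAAT or ATTGG for a CCAAT box, and GGGCGG or CCGCCC for a GC box, so that both strands were searched. All 3 windows lie on the plus strand, CDCA8 at chr1:37692266-37692515, BORA at chr13:72727673-72727922 and INCENP at chr11:62123761-62124010.
CDCA8: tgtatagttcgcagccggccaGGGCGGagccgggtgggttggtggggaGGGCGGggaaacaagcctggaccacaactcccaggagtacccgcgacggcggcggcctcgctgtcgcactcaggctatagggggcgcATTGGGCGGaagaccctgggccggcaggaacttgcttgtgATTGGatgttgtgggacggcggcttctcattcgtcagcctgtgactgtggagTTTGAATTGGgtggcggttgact
BORA: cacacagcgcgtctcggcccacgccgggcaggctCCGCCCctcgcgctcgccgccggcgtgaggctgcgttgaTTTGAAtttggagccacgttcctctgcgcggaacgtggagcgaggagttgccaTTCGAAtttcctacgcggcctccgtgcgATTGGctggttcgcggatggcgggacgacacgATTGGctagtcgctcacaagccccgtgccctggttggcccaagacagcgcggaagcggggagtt
INCENP: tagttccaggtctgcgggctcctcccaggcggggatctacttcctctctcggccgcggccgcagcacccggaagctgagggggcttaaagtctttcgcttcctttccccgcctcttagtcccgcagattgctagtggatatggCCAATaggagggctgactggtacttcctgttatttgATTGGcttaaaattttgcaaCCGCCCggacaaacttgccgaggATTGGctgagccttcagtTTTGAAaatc

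CDCA8 had 1 CHR, beginning 23 bases before the start and sharing a base with 1 of its 3 CCAAT boxes, and 3 GC boxes, of which 1 overlapped a CCAAT box. BORA had 2 CHR matches, at 177 and 124 bases before the start, 2 CCAAT boxes and 1 GC box. INCENP had 1 CHR at 10 bases, 3 CCAAT boxes and 1 GC box. The 2 overlapping AURKB windows, whose start sites lie inside the gene as annotated, held 0 CHR, 1 CCAAT box and 3 GC boxes each. Among 34786 distinct windows of 250 bases in the table, 14.4% held a CHR, 32.0% a CCAAT box, 42.6% a GC box and 5.07% both a CHR and a CCAAT box. These are matches of letters, and their relation to the differences was not tested.

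Every value is the log2 of the signal the authors deposited per probe set and array. Values of different probe sets are not comparable as levels, because each probe set has its own affinity. Of the squamous epithelium markers, 7 of 10 had a probe set with 1 symbol, and their mean signals lay between 7.69 and 12.83 log2. The log2 of their summed signal was 13.03 to 13.31 in untreated cells and 13.69 to 13.73 after YM155. The marker SFN alone averaged 12.83 log2, so it makes up much of this sum. Without overlap, 5 of 7 markers were higher and 1 lower. Of all 14043 genes, each by its brightest probe set, 2712 were higher and 3597 lower without overlap. Most of these markers thus moved in the direction opposite to most members, and their part in the results was not tested. The brightest markers of fibroblasts, leukocytes, endothelium and glandular epithelium were COL1A1 at 6.16, CD79A at 4.87, PECAM1 at 4.29 and CDX2 at 4.04 log2. The summed leukocyte markers stood at 5.90 to 5.96 and 5.97 to 5.99 log2, and the other 3 lists overlapped between the groups. The untreated arrays stood further apart than the YM155 arrays: 1690 of 32768 probe sets tested differed at least 2-fold between the former, and 56 between the latter. The log2 difference between the 3' and 5' ACTB control probe sets, a measure of RNA integrity, was 2.72 and 2.18 in untreated cells and 2.10 and 2.95 after YM155, so it overlapped between the groups; its part in the results was not tested. The titles of the YM155 samples also hold B1 or B2, tags of unstated meaning that are missing from the untreated titles. Whether the arrays came from separate cultures is not said, so the tests measure the spread between arrays, which may be technical.

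For 6 of the 7 genes, the mean signal was lower after YM155 in every probe set, and INCENP was the exception. The 12 negative differences ran from −0.10 to −0.90 log2. The Aurora A activator gene BORA and the AURKA probe set 208079_s_at had the largest, and the probe sets of BIRC5 lay between −0.54 and −0.10. None of the 13 passed the test. By limma with Benjamini-Hochberg adjustment, 0 of 32768 probe sets were called at an adjusted p under 0.05, a background of 0%, and the smallest adjusted p of a member was 0.351. At an unadjusted p under 0.05, 1986 probe sets were lower and 1647 higher. Of the members, 5 of 13 were lower at that level, against 6.06% of all probe sets. In 9 of 13, both YM155 arrays lay below both untreated arrays, against 23.9% of all probe sets. The median difference over the 13 was −0.48 log2, and over all probe sets tested it was −0.016. Members that share a gene share their RNA, and all share the same 4 arrays, so the 13 are not independent. They were also chosen with earlier results of these data known, so the shares beside the background are a description and not a test. In RNA of a whole culture, fewer cells in G2 or M phase and less of each transcript per cell cannot be told apart.

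**Figure D1:**
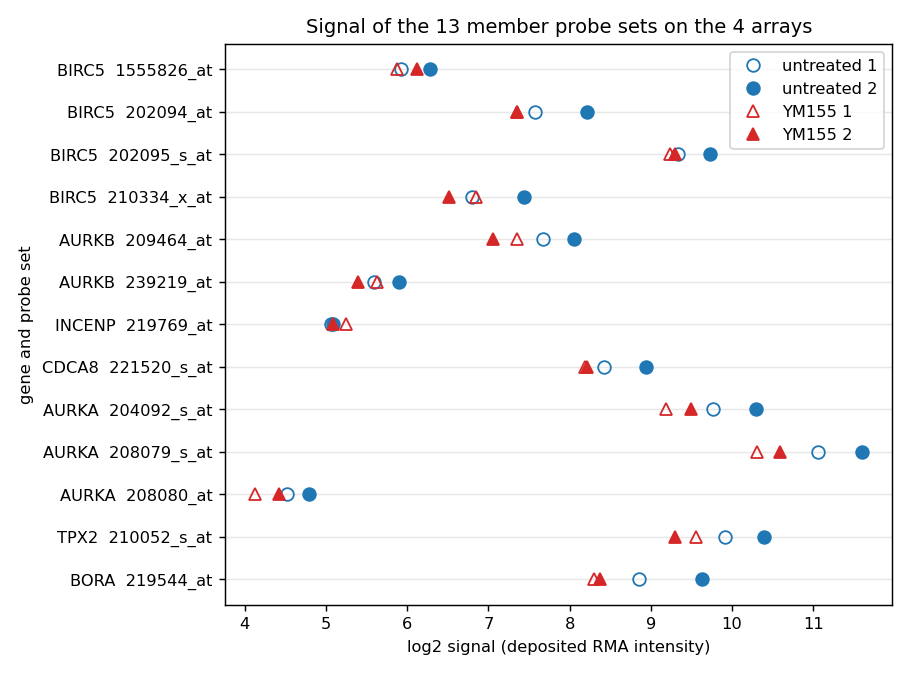
Log2 signal (horizontal axis) of each member probe set (rows) on the 4 arrays; circles are untreated and triangles YM155 arrays, open for replicate 1 and filled for replicate 2. Untreated replicate 2 is the rightmost point in 12 of 13 rows, and in 9 rows both triangles lie to the left of both circles.

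The plot of signals by array shows that untreated replicate 2 read higher than untreated replicate 1 for 13 of 13 member probe sets, by 0.49 log2 in median. The same gap over all probe sets tested was −0.0074 in median with its sign, where both directions cancel, and 0.237 in median size. For 6 of 13 members, the gap between the untreated arrays was larger than the difference between the groups. The mean of the YM155 arrays lay below untreated replicate 2 for 12 of 13 members and below untreated replicate 1 for 11 of 13. The median difference was −0.75 with replicate 2 as the reference and −0.22 with replicate 1. Over all probe sets tested, these medians were −0.0077 and −0.031. The sizes given next therefore depend on which untreated array is taken as the reference, and both are given for each member. With 2 arrays a group, an exact two-sided permutation test of a single value cannot go below p = 0.333.

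Survivin's transcript was read by 4 BIRC5 probe sets. The brightest, 202095_s_at, gave 9.33 log2 in untreated replicate 1, 9.73 in replicate 2, and 9.24 and 9.30 after YM155. Both YM155 arrays lay below both untreated arrays, with untreated replicate 2 the highest. Its group means were 9.53 ± 0.28 (SD, n = 2) and 9.27 ± 0.042 (SD, n = 2), and so differed by −0.26 ± 0.18 (SE), with a limma adjusted p = 0.653 and a 95% interval from −0.75 to 0.22. Taken from untreated replicate 1 alone, the difference was −0.061, and from replicate 2 it was −0.46. Probe set 202094_at showed the largest BIRC5 difference. It read 7.58 and 8.22 log2 in untreated cells but 7.36 and 7.35 after YM155, which gave −0.54 ± 0.25 (SE; limma adjusted p = 0.508), or −0.22 from untreated replicate 1 and −0.87 from replicate 2. Here YM155 replicate 2 stood at −0.0092 log2 from replicate 1, and both lay below the untreated arrays. The other BIRC5 probe sets overlapped between the groups. The suffix of 210334_x_at marks probes that may bind unrelated transcripts too, and it read 6.80 and 7.44 in untreated cells, then 6.85 and 6.52 after YM155. Its difference of −0.43 ± 0.27 (SE) was −0.12 from untreated replicate 1 and −0.75 from replicate 2. Probe set 1555826_at differed by −0.10 ± 0.19 (SE), and its mean after YM155 was 0.074 above untreated replicate 1 and stood at −0.28 from replicate 2. The intervals of all 4 BIRC5 probe sets held 0, and the one of 202094_at ran from −1.19 to 0.10.

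Aurora B, the kinase of the passenger complex, had 2 AURKB probe sets. Probe set 209464_at was at 7.67 and 8.06 log2 in untreated cells and at 7.35 and 7.06 after YM155, without overlap. Its difference was −0.66 ± 0.20 (SE; limma adjusted p = 0.399), with an interval from −1.19 to −0.12 before adjustment. The difference was −0.46 from untreated replicate 1 and −0.85 from replicate 2. Probe set 239219_at lay between 5.40 and 5.90 log2 with overlapping groups, and gave −0.24 ± 0.18 (SE), or −0.086 from untreated replicate 1 and −0.39 from replicate 2.

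Borealin's gene CDCA8 read 8.42 and 8.94 log2 in untreated cells but 8.19 and 8.22 after YM155. Both YM155 arrays lay below both untreated ones and within 0.025 log2 of each other. The difference was −0.48 ± 0.21 (SE; limma adjusted p = 0.506), or −0.22 from untreated replicate 1 and −0.74 from replicate 2. INCENP, the scaffold gene, read 5.06 and 5.09 log2 in untreated cells and 5.25 and 5.08 after YM155. These values overlapped, and the difference was 0.095 ± 0.14 (SE; limma adjusted p = 0.843), with an interval from −0.27 to 0.47. It was the member with the smallest gap between untreated arrays, 0.026 log2, and the member with a positive difference from each of them, 0.11 and 0.082. Detection calls were not used, so the signal of its single probe set is not shown to exceed background. Whether INCENP differed from its partners in response was not tested.

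**Figure D2:**
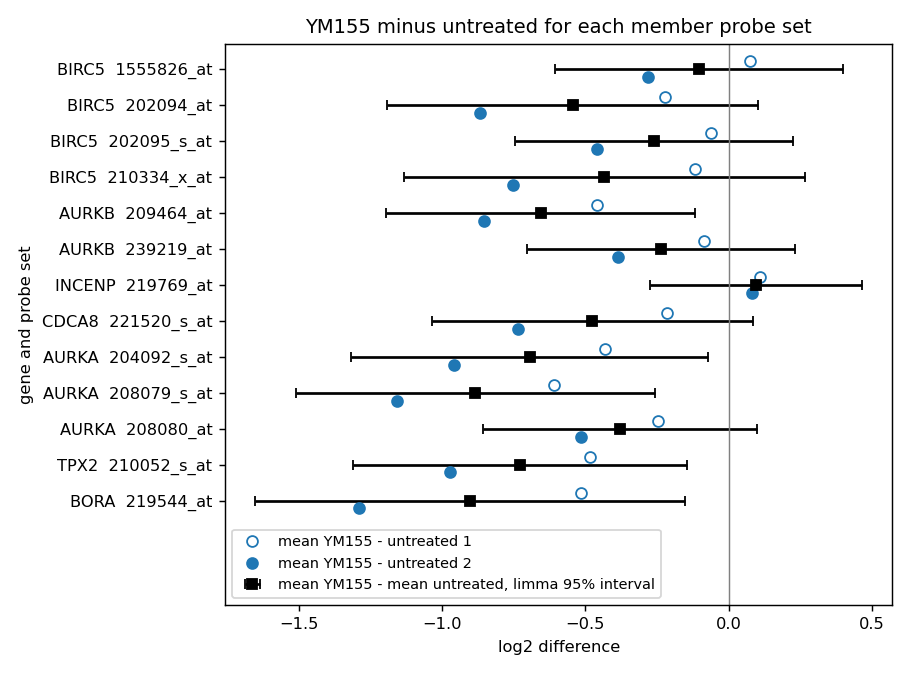
Log2 difference (horizontal axis) of each member probe set (rows). Squares with bars are the mean of the YM155 arrays minus the untreated mean with limma's unadjusted 95% interval, and circles are the YM155 mean minus untreated replicate 1 (open) or 2 (filled); filled circles lie left of open ones in 13 of 13 rows.

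Aurora A itself had 3 AURKA probe sets, all without overlap between the groups. The brightest, 208079_s_at, was at 11.06 and 11.60 log2 in untreated cells and at 10.30 and 10.59 after YM155. Untreated replicate 2 was highest and YM155 replicate 1 lowest. The group means, 11.33 ± 0.39 (SD, n = 2) and 10.44 ± 0.20 (SD, n = 2), differed by −0.88 ± 0.24 (SE; limma adjusted p = 0.351), a signal 1.84-fold lower. From untreated replicate 1 alone the difference was −0.61, and from replicate 2 it was −1.16. Probe set 204092_s_at gave −0.69 ± 0.24 (SE), from 9.77 and 10.30 log2 in untreated cells to 9.19 and 9.49 after YM155, or −0.43 from untreated replicate 1 and −0.96 from replicate 2. The dim probe set 208080_at, between 4.13 and 4.79 log2, gave −0.38 ± 0.18 (SE), or −0.25 and −0.51 from the same arrays. In all 3, YM155 replicate 2 read higher than YM155 replicate 1, by 0.28 to 0.30 log2.

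TPX2, which activates Aurora A on the spindle, was at 9.91 and 10.40 log2 in untreated cells and at 9.55 and 9.29 after YM155. The groups did not overlap, and the difference was −0.73 ± 0.22 (SE; limma adjusted p = 0.393), a signal 1.66-fold lower. It was −0.48 from untreated replicate 1 and −0.97 from replicate 2. BORA, whose product helps Aurora A to activate PLK1, was at 8.85 and 9.63 log2 in untreated cells and at 8.30 and 8.38 after YM155. It had the largest difference of the members, −0.90 ± 0.29 (SE; limma adjusted p = 0.400), a signal 1.87-fold lower, and also the widest gap between untreated arrays, 0.78 log2. From untreated replicate 1 alone, BORA differed by −0.51, and from replicate 2 by −1.29. Against untreated replicate 1, the 9 probe sets of the partner genes ran from −0.61 to 0.11 and the 4 of BIRC5 from −0.22 to 0.074, so these ranges overlapped.

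When 1 probe set stood for each gene, the one of highest mean, 0 of 14043 genes were called, with 969 lower and 691 higher at an unadjusted p under 0.05 in the probe set test. In that table without untreated replicate 1, a setting chosen after seeing the data, limma called 3 of the 7 members lower: BORA by −1.29 (adjusted p = 0.0407), CDCA8 by −0.74 (adjusted p = 0.0489) and AURKA by −1.16 (adjusted p = 0.0491). It called 604 genes higher and 521 lower in all. The lone untreated array, the one with the higher member signal, is there assumed to vary like the YM155 arrays. Without untreated replicate 2, YM155 replicate 1 or YM155 replicate 2, 0 members were called in the same table. Over all 32768 probe sets, 0 were called without untreated replicate 1, where the smallest adjusted p of a member was 0.0633, that of BORA.

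**Figure D3:**
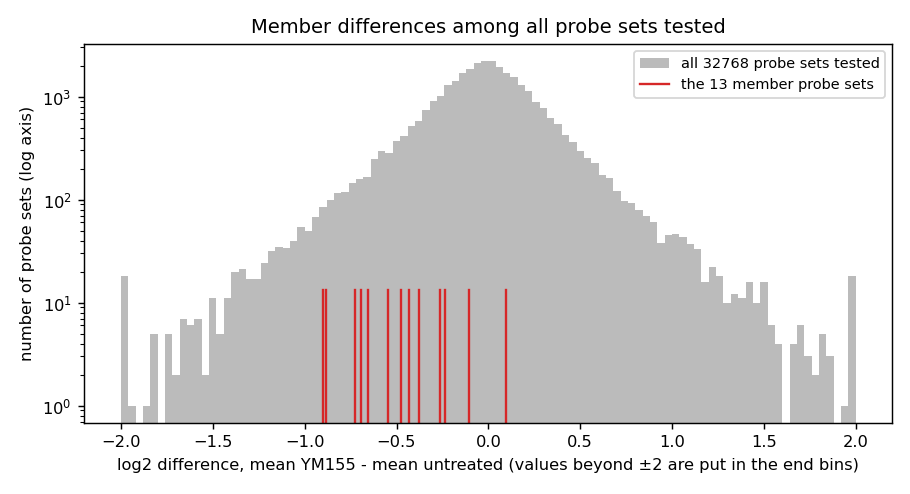
Number of probe sets (vertical log axis) by log2 difference, mean YM155 minus mean untreated (horizontal axis), for all 32768 probe sets tested in grey, with the 13 member probe sets as red lines of arbitrary height. The red lines run from −0.90 to 0.095, on the lower side of the grey median of −0.016 for 12 of 13.

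Placed among all probe sets, as the plot of the distribution shows, 12 of 13 members lay below its median and INCENP above it. With percentiles counted from the most negative difference upwards, BORA stood at percentile 1.60, and the AURKA probe sets at 1.72 (208079_s_at), 3.51 (204092_s_at) and 11.5 (208080_at). TPX2 was at percentile 3.13 and CDCA8 at 7.98. The AURKB probe sets were at 4.02 (209464_at) and 20.9 (239219_at). The BIRC5 probe sets were at 6.17 (202094_at), 9.29 (210334_x_at), 18.9 (202095_s_at) and 36.2 (1555826_at), and INCENP at 67.7.

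Related genes were described from 5 lists of 63 genes, of which 60 had a probe set with 1 symbol and 59 passed the filter on dim signal. Each gene is given by its brightest probe set. The lists, like the members, were chosen with earlier results of these data known. None of the 59 was called by limma over all probe sets (smallest adjusted p = 0.242). The medians of the lists lay from −0.54 to 0.025 log2, beside −0.66 for the 7 members on the same basis and −0.015 for all 14043 genes. Over all genes on this basis, 7429 had negative and 6612 positive differences, and in 25.6% both YM155 arrays lay below both untreated arrays. Where 2 differences follow a gene below, they are those from untreated replicate 1 and from replicate 2, in this order.

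Genes that recruit the passenger complex or act with it at centromeres had mostly negative differences: 7 of 9, all 7 without overlap between the groups, with a median of −0.54. The medians were −0.46 from untreated replicate 1 and −0.75 from replicate 2, and replicate 2 read higher than replicate 1 by 0.35 log2 in median. The list was led by CENPA, the histone H3 variant that marks centromeres, at 8.71 and 9.06 log2 in untreated cells but 8.16 and 7.78 after YM155, and so differed by −0.91 ± 0.21 (SE) with a limma adjusted p = 0.326 (−0.74 and −1.09). KIF2C, a microtubule depolymerase that Aurora B regulates, followed at −0.87 ± 0.30 (SE), with −0.46 and −1.28. The spindle checkpoint kinase gene TTK was at −0.80 ± 0.25 (SE), with −0.51 and −1.10. BUB1, whose kinase marks centromeres for shugoshin, was at −0.76 ± 0.41 (SE), with −0.16 and −1.36. SGO1 (0.35) and AURKC (0.20), the gene of the third Aurora kinase, had positive differences, but the other SGO1 probe set, of similar dim signal, gave −0.085 ± 0.13 (SE).

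All 5 genes of partners at the central spindle had negative differences, 3 without overlap, with a median of −0.29. The median gap between the untreated arrays was 0.60 log2 for this list, larger than that difference. The medians were −0.28 from untreated replicate 1 and −0.33 from replicate 2, but these are values of different genes, KIF4A and KIF23. KIF20A, the kinesin that carries the complex to the central spindle, stood at −1.17 ± 0.50 (SE; limma adjusted p = 0.489), from 8.86 and 10.32 log2 in untreated cells to 8.48 and 8.37 after YM155. The difference was −0.43 from untreated replicate 1 and −1.90 from replicate 2. PRC1, a microtubule bundler, stood at −0.32 ± 0.13 (SE), with −0.35 and −0.28, and the kinesin gene KIF4A at −0.26 ± 0.14 (SE), with −0.28 and −0.25. RACGAP1 of the centralspindlin complex overlapped between the groups, at −0.29 ± 0.26 (SE), with 0.014 and −0.60. KIF23 overlapped too, at −0.026 ± 0.26 (SE), with 0.27 and −0.33, and its dimmer probe set gave −0.46 ± 0.25 (SE).

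Regulators and spindle partners of Aurora A had 12 of 14 negative differences, 9 of them without overlap, and a median of −0.34. The 2 positive ones did not overlap either: LATS2 at 0.48 ± 0.17 (SE), with 0.63 and 0.33, and KIF11 at 0.11 ± 0.14 (SE). The other LATS2 probe sets gave 0.64 ± 0.19 (SE), 0.00030 ± 0.13 (SE) and −0.93 ± 1.12 (SE). The median gap between the untreated arrays was 0.19 log2, and the medians were −0.26 from untreated replicate 1 and −0.31 from replicate 2. NEDD9, a scaffold that binds Aurora A, was at −0.72 ± 0.55 (SE) with overlapping groups, with 0.073 and −1.52. Its signal was dim, from 3.75 to 5.46 log2, and its other probe sets differed in sign, at 0.16 ± 0.27 (SE) and −0.31 ± 0.17 (SE). PLK1, the kinase that Aurora A activates with BORA, was at 7.08 and 7.90 log2 in untreated cells but 6.83 and 6.89 after YM155, and so differed by −0.63 ± 0.30 (SE) with a limma adjusted p = 0.519. From untreated replicate 1 alone PLK1 differed by −0.22, and from replicate 2 by −1.04. HMMR, which helps TPX2 on spindle microtubules, was at −0.57 ± 0.14 (SE), with −0.50 and −0.63, and TACC3, a substrate of Aurora A, at −0.52 ± 0.19 (SE), with −0.33 and −0.72.

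Genes of turnover and localisation had no common direction, with 5 negative and 8 positive differences and a median of 0.025. KLHL21, an adaptor of the CUL3 ubiquitin ligase that acts on Aurora B, was at 6.42 and 6.68 log2 in untreated cells and at 7.43 and 7.75 after YM155. The groups did not overlap, and the difference was 1.04 ± 0.19 (SE; limma adjusted p = 0.274), with positive differences from both untreated arrays. A related adaptor gene, KLHL13, was at −0.41 ± 0.20 (SE), with −0.19 and −0.64. The anaphase activator gene CDC20, at −0.40 ± 0.37 (SE), and CUL3, at −0.20 ± 0.20 (SE), overlapped between the groups. Both were positive from untreated replicate 1, CDC20 with 0.12 and −0.93 and CUL3 with 0.023 and −0.42, and the other CUL3 probe set gave 0.12 ± 0.18 (SE).

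Transcription regulators of G2 and M phase genes or of BIRC5 were split, 9 negative and 9 positive, with a median of 0.013. CDKN1A, the inhibitor of cyclin-dependent kinases, was at 7.99 and 8.03 log2 in untreated cells but 8.88 and 8.95 after YM155, and so differed by 0.91 ± 0.13 (SE) with a limma adjusted p = 0.242 (0.93 and 0.88). SP1 was at −0.81 ± 0.27 (SE), with −0.51 and −1.12. LIN37, a subunit of the MuvB core, was at 7.43 and 7.35 in untreated cells but 6.62 and 6.70 after YM155, and so differed by −0.73 ± 0.13 (SE) with a limma adjusted p = 0.283, but its dimmer probe set gave 0.084. From each untreated array the brighter one gave −0.77 and −0.70. RBL1, the pocket protein p107, was at 0.46 ± 0.39 (SE) with overlapping groups, with −0.099 and 1.02. Its other probe sets were negative, at −0.40 ± 0.16 (SE) and −0.20 ± 0.23 (SE).

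**Figure D4:**
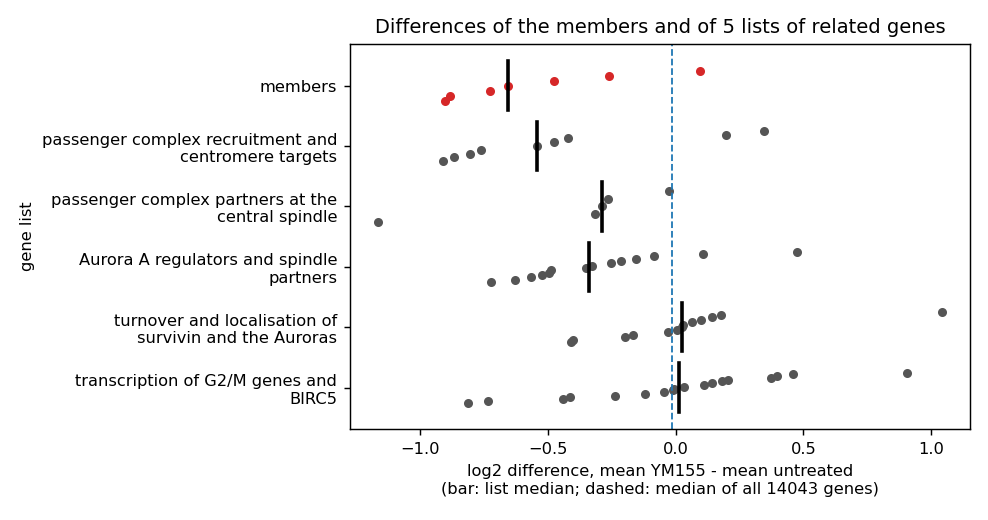
Log2 difference, mean YM155 minus mean untreated (horizontal axis), of the brightest probe set of each gene, for the 7 members (red) and for 5 lists of related genes (grey), 1 point a gene. Black bars are medians, which lie at −0.66 for the members and between −0.54 and 0.025 for the lists, and the dashed line is the median of all 14043 genes, −0.015.

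As the plot of the lists shows, the 3 lists of proteins that work beside the members in mitosis had medians below that of all genes, and the lists of turnover and of transcription had medians close to it. The genes nearest to BIRC5 in their values over the 4 arrays, by Euclidean distance between log2 values centred on each gene's mean, were PAM at 0.0151, TPRG1L at 0.0233, CDKN3 at 0.0285, UBE2E2 at 0.0318 and PRXL2C at 0.0356 log2. Their differences lay between −0.28 and −0.24, beside −0.26 for BIRC5 202095_s_at. This closeness follows from choosing the genes by distance over the same arrays. Among the members, CDCA8 was nearest to BIRC5, at 0.232, rank 1029 of 13142 genes by nearness. BORA was furthest, at 0.694, although its 4 arrays stood in the same order as those of BIRC5 202095_s_at. The distance is not scaled, so it also grows with the size of a gene's differences.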

How the data were processed

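Total RNA was labelled from 200 ng per sample, per the labels' protocols, and measured on 4 arrays. Each deposited value is an intensity of 1 probe set on 1 array after RMA, per the submitters' processing notes. The sources used here do not give its version, its settings or the genome build. The deposited intensity values ran from 2.42 to 15214, a linear scale, so log2 was taken. RMA sets arrays to a common distribution, so a shift shared by all genes is not measured. The number of arrays limits the precision.

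The 62 control probe sets were left out, as were probe sets with a mean below the 40th percentile (3.32 log2), which left 32768. All 13 member probe sets passed. Genes were named by the platform annotation (41091 probe sets with 1 symbol, 1801 with several, 11721 with none). Groups came from the treatment labels. The groups were compared with limma 3.58.1 (R 4.3.3; lmFit, then eBayes; two-sided) with no covariate, and p-values were adjusted by Benjamini-Hochberg over the 32768, at a threshold of 0.05. Degrees of freedom were 2.69 from the prior and 2 from the arrays. Intervals are 95% and not adjusted. The fit was tested on simulated data, with changes larger than any member difference and equal spread in both groups.

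The members and lists were chosen with earlier results of these data known. The genes named were all members, up to 4 genes of each list by size of difference and the 5 genes nearest to BIRC5. SGO1, AURKC, KIF23, LATS2 and KIF11 were added after their values were seen. The alternatives were other filters, 1 probe set or the mean per gene, no _s_at or _x_at probe sets, repeated quantile normalization, median centring, eBayes with trend and robust, array weights, a replicate block, and each array left out. Same-numbered arrays did not deviate together (correlation −0.033).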

Additional observations from a re-analysis of the deposited data

How the results depend on the processing

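No feature and no member was called under the other filters, per gene tests, normalizations, variance models and weights listed in the processing, or in the probe set fit with each array left out. The 60th percentile filter left out 1 member probe set, AURKA 208080_at. With the replicate number as a block (replicate block), 0 probe sets were called and the smallest adjusted p was 0.568; the numbers were not shown to pair the arrays. With the brightest probe set per gene and without untreated replicate 1, a combination chosen after seeing the data, 1125 genes and 3 members were called, and the members' median was −0.85. The median over the members ran from −0.75 to −0.22 log2 with each array left out of the probe set fit, and under repeated quantile normalization or median centring it was −0.46 and −0.47, with 12 of 13 negative in both. BIRC5 1555826_at changed sign with an array left out: its difference ran from −0.28 to 0.074, at 0.074 without untreated replicate 2 and 0.020 without YM155 replicate 1. The cause was not tested. Detection calls were not used, so passing the filter's limit of 3.32 log2 does not show that a signal exceeds background.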

Other observations

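The YM155 arrays differed from each other by amounts that varied between the members and, for BIRC5, in sign between probe sets of 1 gene. YM155 replicate 2 minus replicate 1 was 0.30, 0.28 and 0.29 log2 for the AURKA probe sets 204092_s_at, 208079_s_at and 208080_at. It was −0.29 and −0.23 for the AURKB probe sets 209464_at and 239219_at, −0.26 for TPX2 and −0.17 for INCENP. Among the BIRC5 probe sets it was 0.25 for 1555826_at, −0.33 for 210334_x_at, −0.0092 for 202094_at and 0.059 for 202095_s_at. For BORA it was 0.074 and for CDCA8 0.025. The median size of this gap over all probe sets tested was 0.136 log2. The same arrays differed in the ACTB 3' to 5' log2 difference, 2.10 in replicate 1 and 2.95 in replicate 2, and in that of GAPDH, 0.033 and 0.211. The part of RNA integrity in the gaps of the members was not tested.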
